A study of Mus musculus with 50 samples.

Results

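The comparison set 20 serum libraries from 4 groups of operated C57BL/6 mice (MCAO, MCAO_Sham, ICH and ICH_Sham, 5 libraries each) against the 5 libraries of untreated mice (Naïve), out of 25 libraries in all. Operated libraries were chosen by their labels alone, and each operated group had equal weight in the mean. The question was which serum microRNAs (miRNAs) moved with any operation, and how evenly they did so over the 4 operations.

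All mice were aged 8 to 12 weeks, and no genetic change is named in the labels. In the MCAO group, a model of ischemic stroke, the middle cerebral artery was blocked by a filament for 30 min, and reperfusion lasted 150 min before blood sampling. The MCAO_Sham operation left out the filament. For ICH, a model of intracerebral hemorrhage, 20 µL of autologous blood was put into the striatum, and for ICH_Sham the needle went in with no injection. Naïve mice had neither surgery nor injection, so the contrast holds everything the operations share, and its parts cannot be told apart. Whether the libraries of a group stem from different animals is not said in the labels, so p-values measure only the spread between libraries, which may be technical.

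miRNAs are short RNAs that pair, mainly through a seed of bases 2 to 8, with messenger RNAs and lower their output. Serum holds miRNAs from blood cells and platelets, released in part while the blood clots, and from liver, vessel wall and muscle, carried in vesicles or bound to proteins. Several are markers of a source: miR-150-5p of lymphocytes, miR-451a and miR-486-5p of red cells, miR-122-5p of liver, miR-1a-3p and the miR-133 family of muscle, and miR-124-3p of neurons. Because values are shares of a library, a lower level can mean less of that miRNA or more of the others, which cannot be told apart here.

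The mature sequences of the called miRNAs that were matched, and of miR-148b-3p, an uncalled seed relative, are shown 5′ to 3′ with the seed in capitals, because the seed groups them with their relatives and because it shows which entries share reads. They are RefSeq sequences of build GRCm38.p6, which held 170 of the 199 miRNAs tested.
miR-133b-3p: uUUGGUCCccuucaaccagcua
miR-379-5p: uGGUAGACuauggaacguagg
miR-300-3p: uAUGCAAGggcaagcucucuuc
miR-434-3p: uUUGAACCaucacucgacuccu
miR-152-3p: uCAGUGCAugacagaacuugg
miR-148b-3p: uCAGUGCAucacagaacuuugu
miR-199a-3p: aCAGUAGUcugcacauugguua
miR-30a-5p: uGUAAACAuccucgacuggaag
miR-92a-3p: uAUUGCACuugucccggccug
miR-191-5p: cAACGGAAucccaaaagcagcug
miR-106b-3p: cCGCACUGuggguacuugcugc
miR-27a-3p: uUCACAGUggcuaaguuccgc
miR-708-3p: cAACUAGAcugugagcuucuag
miR-3473b: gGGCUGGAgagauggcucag
miR-3473e: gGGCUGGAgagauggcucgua
miR-152-3p and miR-148b-3p have one seed, as has miR-148a-3p. miR-199a-3p and miR-199b-3p have the same mature sequence and were counted as one entry. miR-3473b and miR-3473e share their first 18 bases and were read as 1 signal, since they had 11633 and 11630 counts and the same count in 20 of 25 libraries.

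Library totals were not even between the groups. They ranged from 38393 to 315646 counts, and the Naïve mean was 55662 ± 23160 (SD, n = 5), against 153952 ± 93573 for MCAO, 92396 ± 53034 for MCAO_Sham, 118431 ± 24159 for ICH and 115325 ± 41509 for ICH_Sham (SD, n = 5 each). Operated libraries were deeper than Naïve libraries by 1.07 on the log2 scale (exact two-sided permutation test over 53130 splits, p = 0.00147, adjusted p = 0.00294 over 2 measures). The liver miRNA miR-122-5p held 32.5% of the counts of ICH_Sham 1 and 32.4% of those of Naïve 2, against at most 17.7% elsewhere, and miR-148a-3p held 43.4% of MCAO 2. The red cell measure, given as log2 of miR-451a over miR-23a-3p, was −1.59 ± 0.92 in operated and −1.35 ± 0.49 in Naïve libraries (SD, n = 20 and 5), a difference of −0.25 that the exact permutation test did not separate from 0 (p = 0.573). By group the measure was −0.69 ± 0.69 for MCAO, −1.60 ± 1.03 for MCAO_Sham, −2.15 ± 0.91 for ICH and −1.93 ± 0.22 for ICH_Sham (SD, n = 5 each). Its reference, miR-23a-3p, ran from −0.45 in MCAO to 0.38 in ICH as log2 fold change against Naïve. It was unequal among the operated groups (adjusted p = 0.0457, edgeR test of equality). The difference in the measure was −0.04 without Naïve 2, and with miR-486-5p in place of miR-451a it was −0.92 (exact permutation p = 0.00742). With miR-16-5p in place of miR-451a it was −0.29 (exact permutation p = 0.430). miR-486-5p is itself among the miRNAs called below. No Naïve library has an index tag in the ranges of ICH and ICH_Sham, so for these groups tag and operation cannot be told apart. Among MCAO, MCAO_Sham and Naïve, with 3, 2 and 1 libraries in the lower tag range, 1 miRNA (miR-150-5p) passed against Naïve with the tag range as a block, and 1 without it.

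Levels are given as CPM, which are read counts scaled to library size with TMM factors (trimmed mean of M values).

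**Figure D1:**
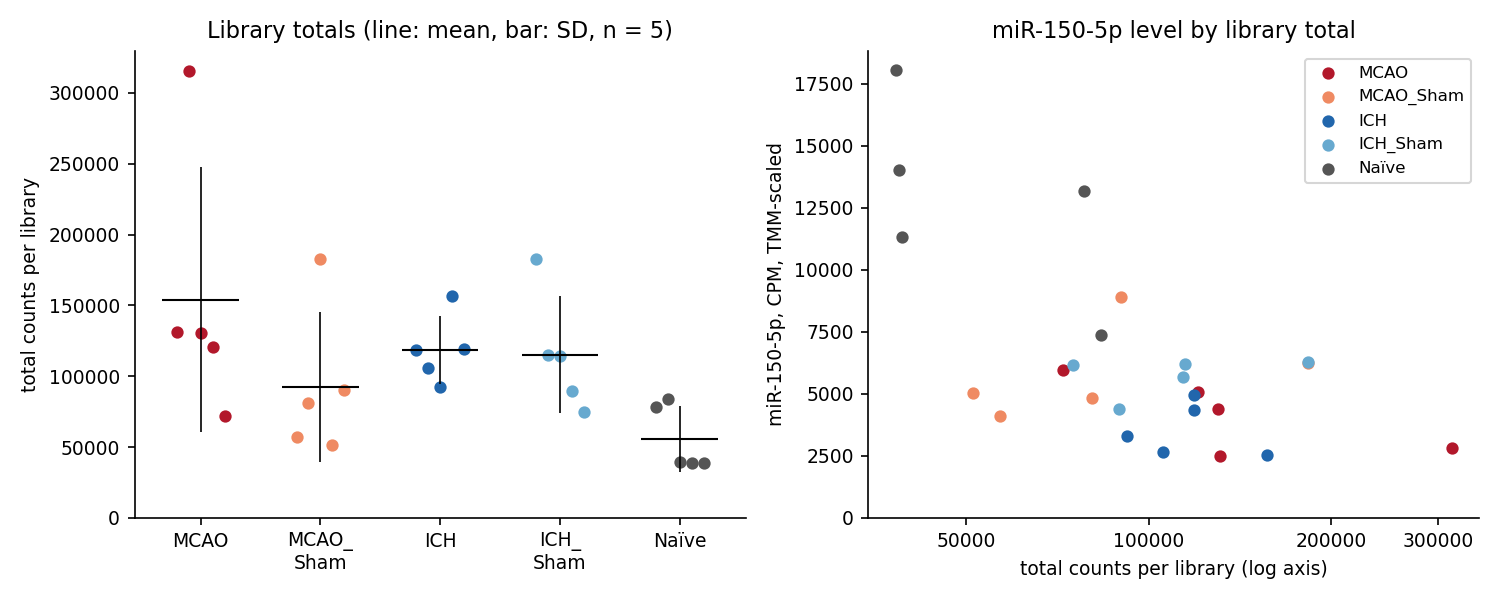
Left, total counts of each library by group on a linear axis, with the mean as a line and the SD as a bar (n = 5 per group). Right, the level of miR-150-5p in CPM against the library total on a log axis. The 3 shallowest Naïve libraries lie between 38393 and 39237 counts, and every operated library with a total no higher than 83564, the deepest Naïve total, has less miR-150-5p than any Naïve library.

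Of 199 miRNAs tested with edgeR's quasi-likelihood test, 17 (8.54%) differed between the mean of the 4 operated groups and Naïve at an adjusted p below 0.05. 10 were higher (5.03%) and 7 were lower (3.52%), and 60 had an unadjusted p below 0.05. The median log2 fold change over all 199 was −0.00. The falls were led by miR-150-5p, the lymphocyte miRNA, with the red cell entry miR-486-5p and miR-3473b/e after it. The rises were led by miR-133b-3p of skeletal muscle, miR-379-5p of the imprinted Dlk1-Dio3 cluster, miR-152-3p and miR-1a-3p of heart and skeletal muscle.

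How many of the 17 held depended on the Naïve libraries and on how depth was handled. The number of calls was 7 without Naïve 5, 10 without Naïve 4, 34 without MCAO 5 and 36 without Naïve 2. Without Naïve 5, 6 of the 17 passed, and without Naïve 3 or Naïve 4 it was 10. The 6 entries that passed in each of the 25 fits without 1 library were miR-150-5p, miR-3473b, miR-3473e, miR-486-5p, miR-152-3p and miR-708-3p. With the log2 library total as a covariate, 2 passed, miR-150-5p and miR-434-3p, and miR-92a-3p changed sign. This covariate itself differed between operated and Naïve libraries. With every library thinned at random to 38393 counts, 157 miRNAs were tested and 18 passed, 15 of them among the 17. With the sham groups alone against Naïve, 8 passed, all of them among the 17.

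**Figure D2:**
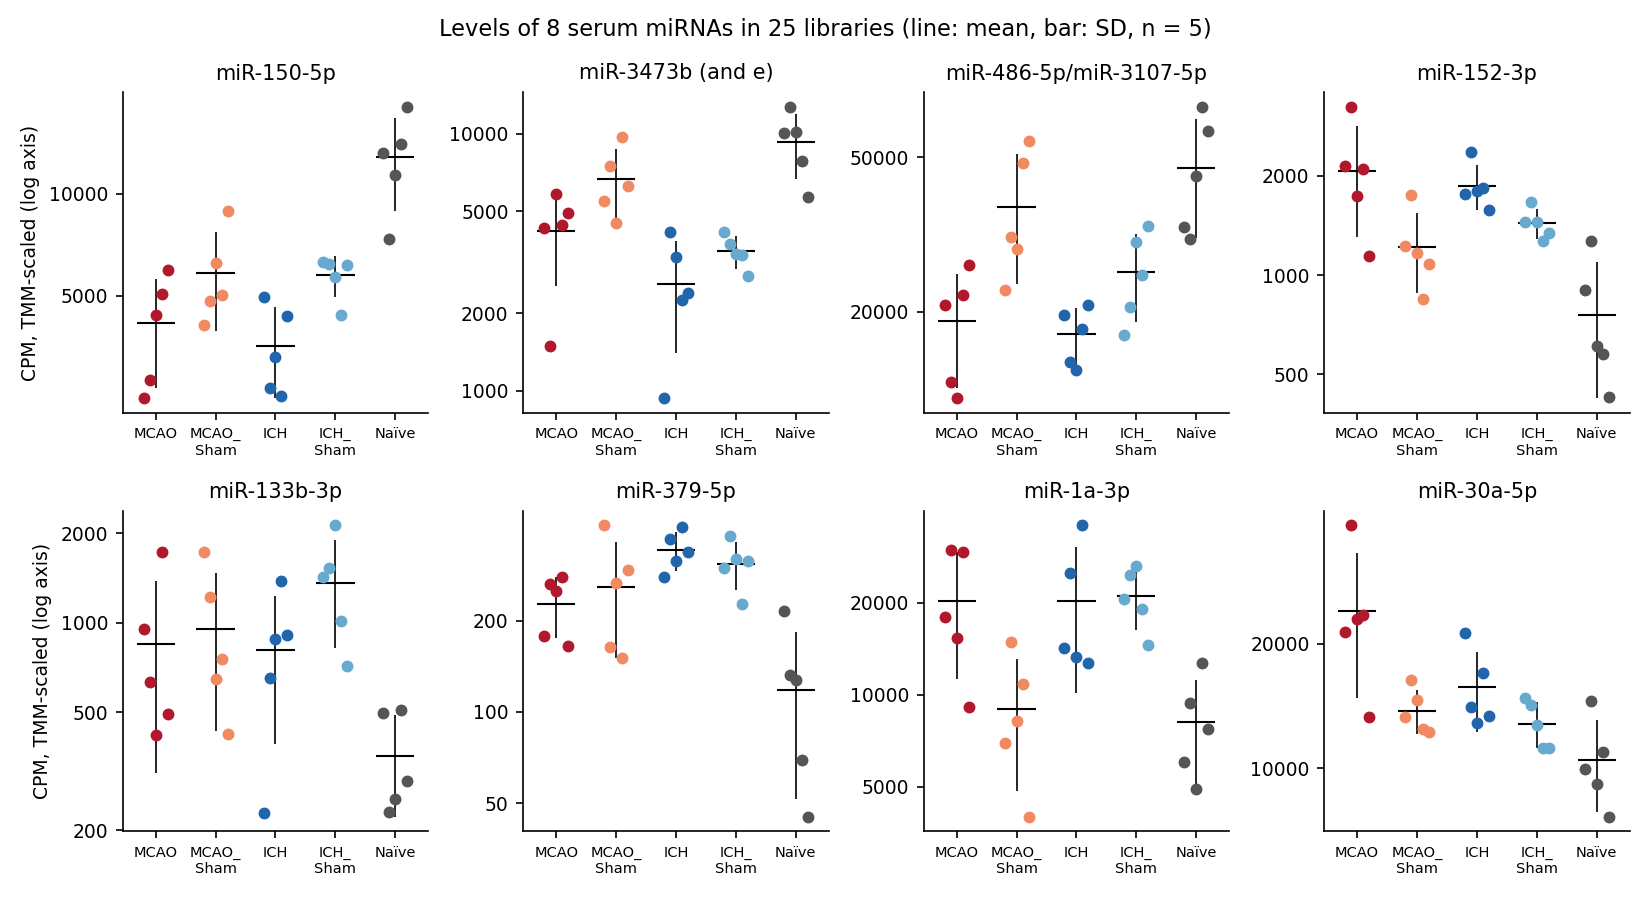
Level of 8 miRNAs in each of 25 libraries, in TMM-scaled CPM on log axes, with the mean as a line and the SD as a bar (n = 5 per group). The mean of miR-150-5p is lowest in ICH and highest in Naïve, and 3 of the 5 MCAO_Sham values of miR-1a-3p lie inside the Naïve range.

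miR-150-5p, which is abundant in mature B and T cells and in mouse targets the transcription factor Myb, had the largest fall. The 5 Naïve libraries held 13175, 7356, 11312, 14015 and 18047 CPM, and the operated libraries held 2494 at the lowest, 4886 at the median and 8914 at the highest. 19 of the 20 operated libraries lay below the lowest Naïve value, and the remaining one, MCAO_Sham 7 at 8914 CPM, overlapped it. The log2 fold change was −1.44 ± 0.19 (SE, adjusted p = 3.96e-06, edgeR). All 4 group values were below 0 (−1.63 for MCAO, −1.13 for MCAO_Sham, −1.84 for ICH and −1.15 for ICH_Sham), and the test of equality among them gave an adjusted p of 0.0809. The call held in every one of the 50 alternative fits, with log2 fold changes from −1.74 to −1.18 and an adjusted p of at most 0.00448. In the 5 operated libraries no deeper than the deepest Naïve library, the level ran from 4089.6 to 6175 CPM, still below the lowest Naïve value. These were MCAO 5, MCAO_Sham 1, MCAO_Sham 2, MCAO_Sham 5 and ICH_Sham 5. There miR-434-3p also lay apart from Naïve, at 667 to 1126 CPM against 315 to 622 CPM. Other called miRNAs overlapped Naïve there, among them miR-486-5p, miR-3473b, miR-708-3p and miR-1a-3p.

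Of the other lymphocyte miRNAs, none passed. miR-342-3p, made from an intron of Evl and high in lymphocytes, had a log2 fold change of −0.74 (adjusted p = 0.0516, edgeR), with group values between −0.86 in ICH and −0.61 in ICH_Sham. miR-150-3p, the other arm of the miR-150 hairpin, had −0.81 (adjusted p = 0.164) at a median operated level of 59.8 CPM, close to the filter on low counts. miR-181d-5p went the other way, at 0.49 (adjusted p = 0.0952). Over the lymphocyte list, 6 of 9 members were tested, 0 were higher and 1 was lower (16.7%, against 3.52% lower over all 199), with a median log2 fold change of −0.16 against −0.00 over all miRNAs tested. The list held 0.633 to 2.55% of the counts of operated libraries and 1.71 to 3.19% of those of Naïve libraries.

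miR-486-5p is made from an intron of Ank1, is abundant in red cells and muscle, and was counted together with miR-3107-5p, so their reads cannot be separated. Naïve libraries held 33044, 30814, 44814, 67471 and 58219 CPM. In MCAO_Sham the values were 22783, 31249, 28968, 48309.9 and 55124 CPM. In ICH they were 19673, 14891, 14212, 18097 and 20859.8 CPM. All ICH values lay below all Naïve values, whereas MCAO_Sham overlapped Naïve. This gave a log2 fold change of −0.99 ± 0.20 (SE, adjusted p = 0.00111, edgeR). The 4 effects (−1.31 and −0.33 in MCAO and its sham, −1.42 and −0.89 in ICH and its sham) were unequal (adjusted p = 0.00985), and MCAO_Sham stood above the mean of the other 3 operated groups by 0.88 ± 0.21 (adjusted p = 0.0198, edgeR).

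miR-92a-3p, a member of the miR-17-92 cluster that red cells hold in quantity, had a log2 fold change of −0.82 ± 0.25 (adjusted p = 0.0350, edgeR). Its Naïve values were 5628, 3356, 6063, 9912 and 8111 CPM, and operated libraries held 1026 at the lowest, 3869.7 at the median and 6262 at the highest. 8 of the 20 operated libraries lay below the lowest Naïve value. The call was lost without Naïve 3, Naïve 4 or Naïve 5, and with the log2 total as a covariate the log2 fold change was 0.012. In the 5 operated libraries no deeper than the deepest Naïve library, the level was 5093 to 5836 CPM, inside the Naïve range.

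The main red cell miRNA, miR-451a, did not pass, at −0.24 ± 0.24 (adjusted p = 0.586, edgeR). Naïve libraries had 5946, 9208, 5834, 5601 and 5024 CPM, while operated libraries had 1523 at the lowest, 5523 at the median and 8840.0 at the highest. Its range in operated libraries reached from below the lowest Naïve value to inside the Naïve range. miR-144-3p, made from the same transcript, had −0.89 (adjusted p = 0.126) and miR-16-5p, abundant in red cells, −0.30 (adjusted p = 0.289). Over the red cell list, 6 of 10 members were tested, 0 were higher and 2 were lower (33.3%, against 3.52%), with a median of −0.56. The list took 2.55 to 10.3% of operated and 4.63 to 11.2% of Naïve counts.

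miR-191-5p, abundant in platelets, fell in operated libraries. Its 5 Naïve values were 19387, 17391, 21273, 28722 and 28366 CPM, and operated values were 10540.1 at the lowest, 15893 at the median and 23647 at the highest. 13 of 20 operated libraries lay below the lowest Naïve library. On the log2 scale the difference was −0.54 ± 0.14 (SE, adjusted p = 0.0171, edgeR). The 4 group effects were −0.62 for MCAO, −0.31 for MCAO_Sham, −0.81 for ICH and −0.41 for ICH_Sham, and the call was lost without Naïve 4 or Naïve 5. miR-425-5p, from the same transcript, had −0.41 (adjusted p = 0.0813), and miR-126a-3p, an endothelial and platelet miRNA from the gene Egfl7, had −0.44 (adjusted p = 0.0830) with 4 group values between −0.52 and −0.40. Of the 11 tested members of the myeloid and platelet list, 0 were higher and 1 was lower (9.09%, against 3.52% over all 199), with a median of −0.08. The marker that defines this list, miR-223-3p, had the opposite sign, at 0.16 (adjusted p = 0.646, edgeR).

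miR-106b-3p is the minor arm of the miR-106b hairpin in an intron of Mcm7, a replication gene. Naïve values were 1512, 2331, 2471, 2443 and 2388 CPM, against operated values of 920.2 at the lowest, 1353 at the median and 2534 at the highest. 14 of 20 operated libraries were below the lowest Naïve library and 2 (MCAO 2 and ICH 1) were above the highest. The fitted log2 fold change was −0.62 ± 0.19 (SE, adjusted p = 0.0399, edgeR). The call was lost without Naïve 3, Naïve 4 or Naïve 5, with log2 fold changes from −0.71 to −0.56 over the fits without 1 library. Of the 6 tested members of the miR-17-92 list, 0 were higher and 1, miR-92a-3p, was lower (16.7%, against 3.52%), with a median of −0.35.

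The reads counted as miR-3473b and miR-3473e gave the fall next to that of miR-150-5p. As background, their shared start is also that of B2, a short interspersed repeat of rodents. The full miR-3473b sequence, searched on both strands, was present in 32 of 32851 RefSeq promoter windows (0.0974%), where 0 windows held the full sequence of any other called miRNA that was matched. Reads of this sequence cannot be assigned to one hairpin. For miR-3473b the Naïve libraries held 10087, 12762, 10191, 7837 and 5700.3 CPM. MCAO_Sham libraries held 5480.4, 7481, 4499, 9699.7 and 6272 CPM. ICH libraries held 934, 4155, 3316, 2250.0 and 2410.2 CPM. The ICH libraries were all below the lowest Naïve library, and 3 of 5 MCAO_Sham libraries were above it. The log2 fold change was −1.22 ± 0.23 (SE, adjusted p = 0.000706, edgeR). The 4 effects (−1.15 and −0.48 in MCAO and its sham, −1.83 and −1.42 in ICH and its sham) were unequal (adjusted p = 0.0113), with MCAO_Sham 0.99 above the other 3 operated groups (adjusted p = 0.0198, edgeR).

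miR-133b-3p, a miRNA of skeletal muscle made on chromosome 1 from the long noncoding transcript Gm28653, had the largest rise among the called miRNAs. Naïve libraries held 495, 231, 255, 507 and 293 CPM, while the operated libraries held 229 at the lowest, 895 at the median and 2129 at the highest. 16 of 20 operated libraries were above the highest Naïve library and ICH 1 was below the lowest. This gave a log2 fold change of 1.43 ± 0.39 (SE, adjusted p = 0.0182, edgeR). The 4 effects (1.23 for MCAO, 1.38 for MCAO_Sham, 1.18 for ICH and 1.92 for ICH_Sham) spanned 0.52 of the size of the mean effect, and their equality test gave an adjusted p of 0.338. The call was lost without Naïve 3 or Naïve 5.

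miR-1a-3p, a miRNA of heart and skeletal muscle, also rose, with MCAO_Sham apart from the other operated groups. Naïve libraries had 6047, 9423, 4917, 12678 and 7728 CPM. MCAO_Sham libraries had 6971, 14869, 8196, 10832 and 3989 CPM. ICH_Sham libraries had 20545, 24659.6, 26342, 19110.2 and 14513 CPM. MCAO_Sham had 3 values inside the Naïve range, 1 above and 1 below it, and the ICH_Sham values were all above it. On the log2 scale the difference was 1.03 ± 0.29 (SE, adjusted p = 0.0216, edgeR). The 4 effects (1.32 and 0.14 in MCAO and its sham, 1.31 and 1.37 in ICH and its sham) were unequal (adjusted p = 0.0291), and MCAO_Sham was −1.20 ± 0.30 from the mean of the other 3 (adjusted p = 0.0198, edgeR). The call was lost without Naïve 1, Naïve 3 or Naïve 5.

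miR-133a-3p, the close relative of miR-133b-3p, had 0.84 ± 0.38 and did not pass (adjusted p = 0.139, edgeR), with its largest value, 1.38, in ICH_Sham. Of 8 muscle list members, 6 were tested, 2 were higher (33.3%, against 5.03% over all 199) and 0 were lower, with a median of 0.59. Its other tested members were nearer to 0 and did not pass. miR-378a-3p had 0.34, miR-206-3p 0.25 and miR-499-5p 0.09 (adjusted p = 0.298, 0.491 and 0.890, edgeR). The group values of miR-206-3p ran from −0.18 in MCAO_Sham to 0.76 in ICH_Sham. The heart miRNAs miR-208a-3p and miR-208b-3p were below the filter, with 1 and 3 counts in operated libraries and 0 in Naïve. The list held 2.67 to 9.02% of operated counts and 2.26 to 4.50% of Naïve counts.

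miR-379-5p, miR-434-3p and miR-300-3p rose, and their hairpins lie in 1 stretch of chromosome 12, the imprinted Dlk1-Dio3 region, whose miRNAs are expressed from the maternal chromosome and are abundant in brain and embryo. The hairpins of miR-434, miR-379 and miR-300 lie at chr12:109594506-109594599, chr12:109709060-109709125 and chr12:109724313-109724391 on the plus strand of GRCm38.p6, within 129886 bases. miR-434-3p and miR-379-5p were members of the list for this region, and miR-300-3p, which is on no list, was placed there by its coordinates after its call was known. For miR-379-5p Naïve libraries held 215.98, 132, 127, 69.2 and 45.1 CPM, and the operated libraries held 151 at the lowest, 287 at the median and 414 at the highest. 16 of 20 operated libraries were above the highest Naïve library. The fitted log2 fold change was 1.15 ± 0.28 (SE, adjusted p = 0.00693, edgeR). The effects were 0.86 for MCAO, 1.03 for MCAO_Sham, 1.44 for ICH and 1.29 for ICH_Sham, and the equality test gave an adjusted p of 0.257.

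For miR-434-3p Naïve libraries held 343, 331, 509.5, 622 and 315 CPM, and operated libraries held 309 at the lowest, 754 at the median and 1193 at the highest. 16 of the 20 operated libraries exceeded the highest Naïve library, and the lowest operated values were those of MCAO 2 and MCAO 3. The log2 fold change was 0.90 ± 0.23 (SE, adjusted p = 0.0134, edgeR). MCAO was −0.69 from the mean of the other 3 operated groups (adjusted p = 0.0238, edgeR). Its other arm, miR-434-5p, had 0.20 (adjusted p = 0.686). miR-300-3p had a log2 fold change of 0.98 ± 0.30 (SE, adjusted p = 0.0350, edgeR). 17 of 20 operated libraries were above the highest Naïve value of 132 CPM, and the call was lost without Naïve 3, Naïve 4, Naïve 5, MCAO 3 or MCAO_Sham 4. The calls for miR-379-5p and miR-434-3p were lost without Naïve 5.

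miR-382-5p of the same region did not pass, at 1.06 (adjusted p = 0.0514, edgeR), with effects of 0.91 and 1.03 in MCAO and its sham, 1.17 and 1.11 in ICH and its sham. Of the 28 members of the Dlk1-Dio3 list, 11 were tested, 2 were higher (18.2%) and 0 were lower (5.03% and 3.52% over all 199), with a median log2 fold change of 0.64 against −0.00 over all miRNAs tested. Its share of counts was 0.176 to 0.653% in operated and 0.262 to 0.403% in Naïve libraries. Below the filter, miR-495-3p had 126 counts in operated and 3 in Naïve libraries, or 52.5 and 10.8 CPM of the summed libraries. Other miRNAs of the region below the filter differed in direction. In summed operated and Naïve libraries, miR-136-3p had 33.3 and 10.8 CPM, miR-411-5p 43.7 and 43.1, and miR-370-3p 23.7 and 32.3.

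The brain list had no called member. 5 of 15 members were tested, with a median of 1.10. miR-9-5p, of neural progenitors and neurons, was counted at 0, 16.5, 0, 69.2 and 0 CPM, and in operated libraries at 0 at the lowest, 58.7 at the median and 469 at the highest. Its log2 fold change was 2.58 ± 1.03 (adjusted p = 0.0840, edgeR), with both groups holding libraries at 0. miR-218-5p, of motor neurons and other tissues, had 1.10 (adjusted p = 0.0514), highest in MCAO at 1.96. miR-129-5p, a neuronal miRNA, had 1.13 (adjusted p = 0.0637) with values of 1.51 for MCAO, 1.27 for MCAO_Sham, 1.32 for ICH and 0.44 for ICH_Sham. miR-128-3p, also neuronal, had 0.16, and all 20 operated values lay inside the Naïve range.

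Below the filter, miR-124-3p, the neuronal miRNA, had 103 counts in 18 of 20 operated libraries and 0 of 278309 counts in Naïve, a result chosen after the counts were seen. The counts were 12 in MCAO, 6 in MCAO_Sham, 27 in ICH and 58 in ICH_Sham, 51 of the latter in ICH_Sham 4. Against a floor of 3 counts over the Naïve group (10.8 CPM), the operated level of 42.9 CPM was at least 3.98-fold higher, and at least 2.09-fold higher without ICH_Sham 4. miR-9-3p had 37 counts in operated and 0 in Naïve libraries, at least 1.43-fold higher against the same floor. Other brain list members below the filter differed in direction. miR-132-3p, with 97 operated counts, had means of 41.3 CPM in operated and 40.8 CPM in Naïve libraries. The means of miR-138-5p were 18.2 and 7.65 CPM, and those of miR-137-3p, with 1 count on each side, were 0.158 and 2.55 CPM. In exact two-sided permutation tests of mean CPM over the 10 brain list members below the filter, none passed (p = 0.200 for miR-124-3p and 0.109 for miR-9-3p, adjusted p = 0.401 for both). For miR-124-3p, ICH_Sham 4 held 571 CPM and the next highest library, ICH 4, held 95.6 CPM. The mean thus rests largely on 1 library, so this test cannot decide whether the other libraries differ. These floors cover counting error only.

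**Figure D3:**
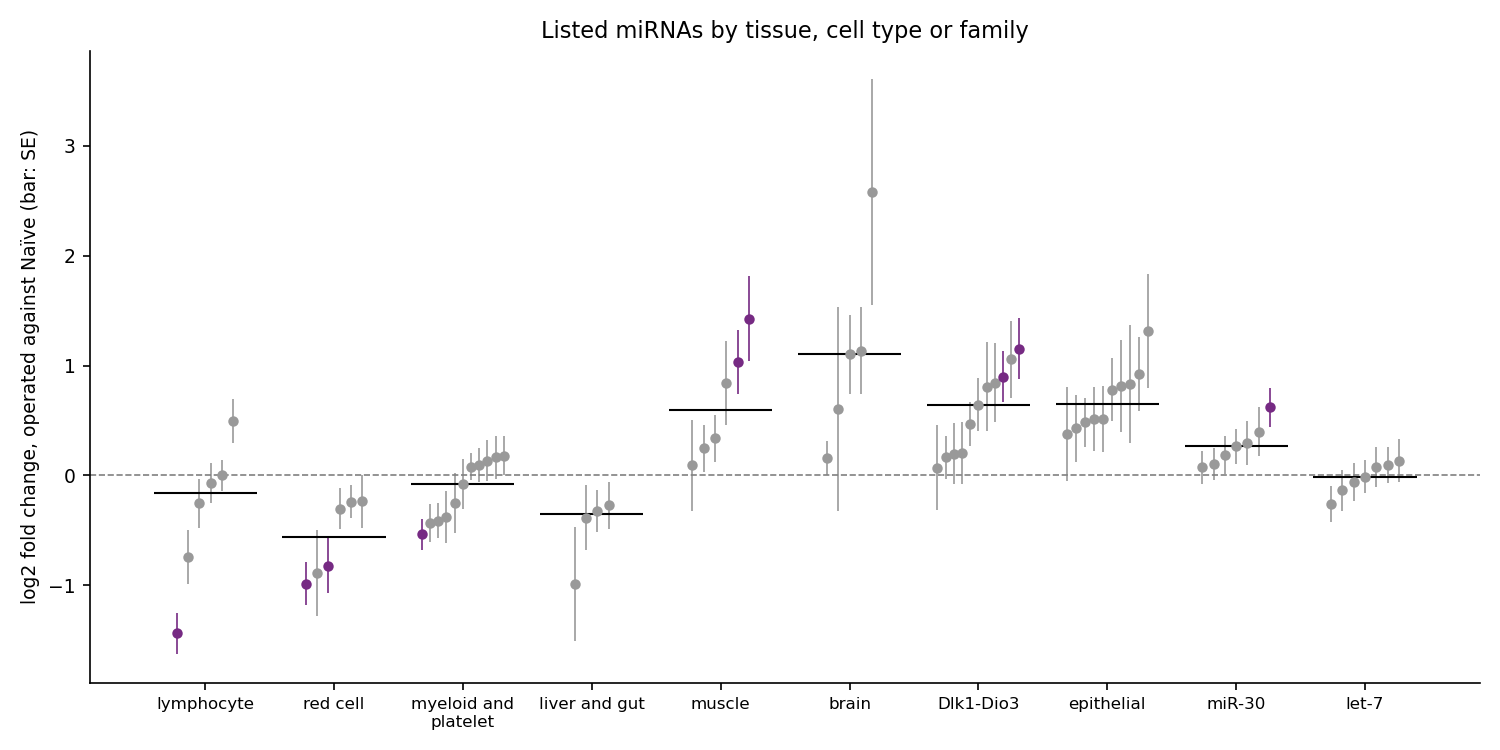
Log2 fold change of operated against Naïve libraries (points, with SE bars) for tested members of 10 lists of miRNAs by tissue, cell type or family, with the list median as a line and the median of all 199 miRNAs as a dashed line. Called miRNAs are purple: 1 in the lymphocyte list, 2 in the red cell list, 1 in the myeloid and platelet list, 2 in muscle, 2 in Dlk1-Dio3 and 1 in miR-30.

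miR-152-3p, made from an intron of Copz2 and known to target Dnmt1, rose. Naïve libraries held 902, 1273, 611, 576 and 428 CPM, and the operated libraries held 849 at the lowest, 1623 at the median and 3246 at the highest. 14 of 20 operated libraries were above the highest Naïve library. This gave a log2 fold change of 1.07 ± 0.23 (SE, adjusted p = 0.00229, edgeR). The effects were 1.43 and 0.66 in MCAO and its sham, 1.28 and 0.90 in ICH and its sham, with an equality test of adjusted p 0.0790. Of its seed relatives, miR-148a-3p had 1.02 and just missed (adjusted p = 0.0538, edgeR), with 2.20 in MCAO against 0.41 in ICH_Sham (equality adjusted p = 0.00365). miR-148b-3p had 0.32 (adjusted p = 0.425).

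miR-708-3p was at 152, 99.2, 280.2, 138 and 158 CPM. In ICH its values were 407, 428, 395, 435 and 377 CPM. 12 of 20 operated libraries were above the highest Naïve library, among them all 5 of ICH. On the log2 scale the difference was 0.92 ± 0.21 (SE, adjusted p = 0.00542, edgeR). Its effects (0.77 for MCAO, 0.56 for MCAO_Sham, 1.34 for ICH and 1.02 for ICH_Sham) were unequal (adjusted p = 0.0340), and ICH stood 0.56 ± 0.16 above the other 3 operated groups (adjusted p = 0.0445, edgeR).

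miR-199a-3p and miR-199b-3p are miRNAs of mesenchymal cells, and a hairpin of the first lies in an exon of Dnm3os on chromosome 1. Naïve libraries had 3341, 4827, 5069.9, 2743 and 2298 CPM. ICH libraries had 7144, 10383, 7866, 8387 and 7341 CPM. MCAO libraries had 4786, 3440.3, 4835, 5374 and 4562 CPM. ICH lay above all Naïve values, and MCAO overlapped them. The fitted log2 fold change was 0.65 ± 0.17 (SE, adjusted p = 0.0134, edgeR). The 4 effects (0.33 and 0.25 in MCAO and its sham, 1.17 and 0.84 in ICH and its sham) were unequal (adjusted p = 0.00297), with ICH 0.69 ± 0.16 above the mean of the other 3 (adjusted p = 0.00925). The other arm, miR-199a-5p, had the opposite sign, −0.71 (adjusted p = 0.0538), and −1.54 in MCAO. The call for the 3p entry was lost without Naïve 4 or Naïve 5. Of the 17 tested members of the vascular and mesenchymal list, 1 was higher (5.88%, near the 5.03% over all 199) and 0 were lower, with a median of −0.10.

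miR-30a-5p belongs to the miR-30 family, which shares the seed GUAAACA. Naïve libraries held 9960.3, 14581, 9146, 10949 and 7638 CPM. MCAO libraries held 21348, 38660.1, 22941, 23485 and 13292 CPM. Of the operated libraries, 9 of 20 exceeded the highest Naïve library, including 4 of 5 in MCAO. The log2 fold change was 0.62 ± 0.18 (SE, adjusted p = 0.0274, edgeR). The effects (1.20 for MCAO, 0.40 for MCAO_Sham, 0.58 for ICH and 0.29 for ICH_Sham) were unequal (adjusted p = 0.00985), and MCAO was 0.77 ± 0.17 above the other 3 (adjusted p = 0.00167, edgeR). The call was lost without Naïve 3, Naïve 4 or Naïve 5. Of the 7 miR-30 members tested, 1 was higher (14.3%, against 5.03%) and 0 were lower (median 0.27), with miR-30e-5p at 0.40 (adjusted p = 0.235) and miR-30c-5p at 0.07 (adjusted p = 0.754).

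miR-27a-3p, in one cluster with miR-23a and miR-24, had the smallest called effect. Naïve values were 8347, 8530.2, 6522, 6892 and 6939 CPM, and the operated values were 7628 at the lowest, 10302 at the median and 14389 at the highest. 14 of 20 operated libraries were above the highest Naïve library. This gave a log2 fold change of 0.46 ± 0.15 (SE, adjusted p = 0.0485, edgeR). The call held in 7 of the 25 fits without 1 library. miR-27b-3p, with the same seed, had 0.48 (adjusted p = 0.0637, edgeR).

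**Figure D4:**
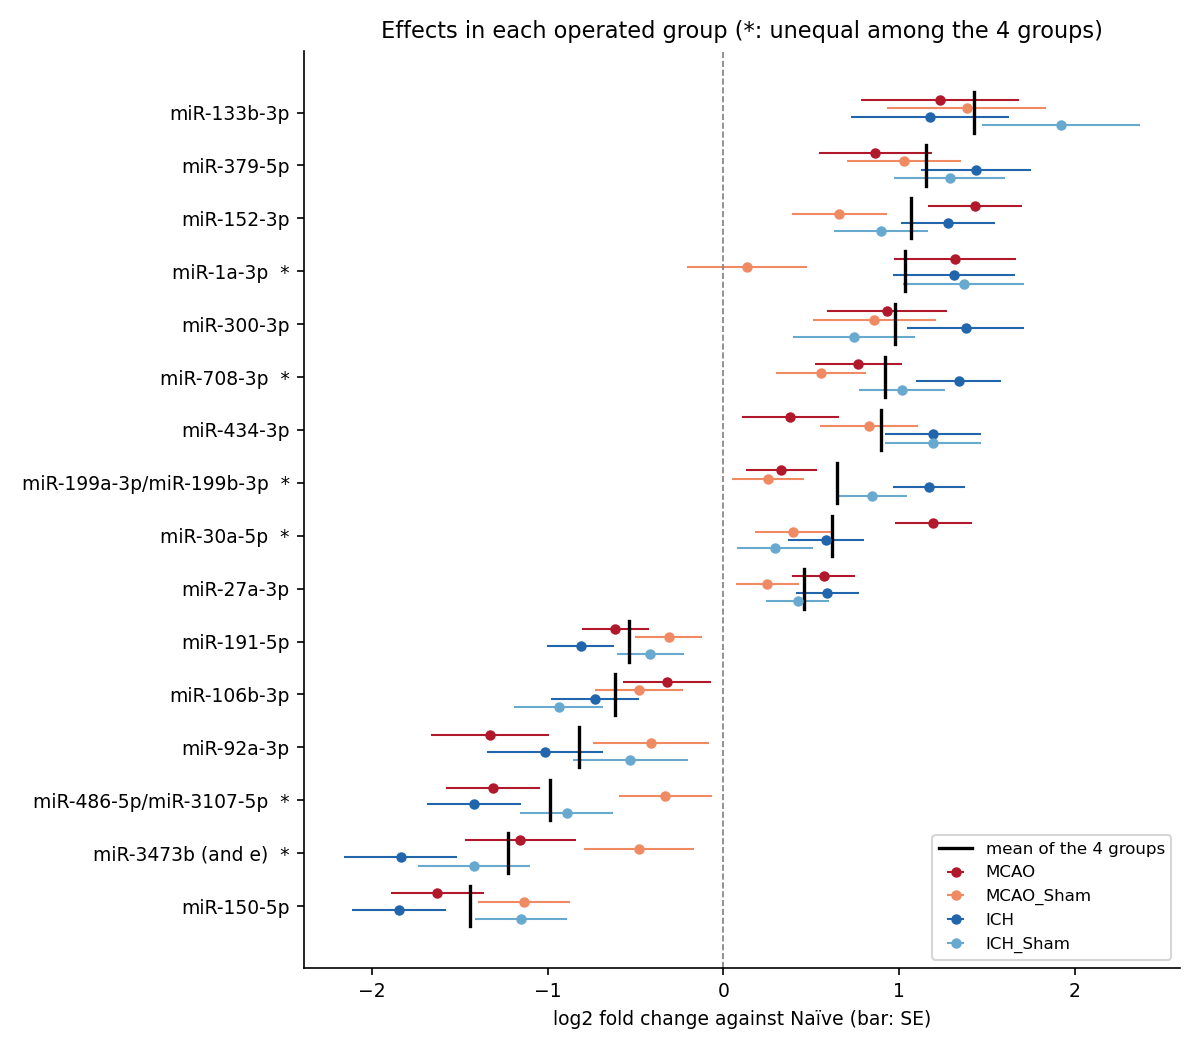
Log2 fold change against Naïve in each of the 4 operated groups (points, SE as bars) for the 16 called signals, with miR-3473b and miR-3473e as 1, and the mean of the 4 groups as a black tick. A star marks miRNAs unequal among the 4 groups. MCAO_Sham lies nearest to 0 for each starred miRNA except miR-30a-5p, and also for miR-150-5p, miR-152-3p, miR-191-5p, miR-92a-3p and miR-27a-3p. ICH lies furthest from 0 for miR-199a-3p, miR-708-3p, miR-150-5p, miR-3473b, miR-486-5p, miR-191-5p, miR-379-5p, miR-300-3p and miR-27a-3p.

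The 4 effects share the Naïve libraries, so evenness was tested among the operated groups alone. Of 199 miRNAs, 40 (20.1%) were unequal among MCAO, MCAO_Sham, ICH and ICH_Sham, and 77 had an unadjusted p below 0.05. This count was 20 without MCAO 2, 64 without MCAO 5, 14 without the 3 libraries of lowest TMM factor and 11 with the red cell ratio as a covariate. Of the 17 called miRNAs, 7 were unequal (41.2%), against 33 of the 182 not called (18.1%), a difference that was not tested. With miR-3473b and miR-3473e as 1 signal, it was 6 of 16 (37.5%). The 10 called and not unequal were miR-150-5p, miR-92a-3p, miR-106b-3p, miR-191-5p, miR-133b-3p, miR-379-5p, miR-152-3p, miR-300-3p, miR-434-3p and miR-27a-3p, for which a miss of the threshold does not show that the operations acted alike. One group against the mean of the other 3 gave 42 calls for MCAO (21.1%), 6 for MCAO_Sham (3.02%), 11 for ICH (5.53%) and 0 for ICH_Sham by edgeR, where 30 had an unadjusted p below 0.05.

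Some miRNAs with large differences between the operated groups did not pass against Naïve. Of those that follow, miR-1298-5p and miR-34c-5p were chosen after their values were seen. miR-1298-5p, which is found in choroid plexus, had effects of 5.81 and 0.52 in MCAO and its sham, −0.71 and −0.45 in ICH and its sham, and its equality test gave an adjusted p of 2.95e-12. miR-34c-5p, of ciliated epithelia, had 1.81 for MCAO, −0.10 for MCAO_Sham, 0.58 for ICH and −0.79 for ICH_Sham and an adjusted p of 0.000109. miR-200a-3p, an epithelial miRNA, had 1.99 and 0.49 in MCAO and its sham, 0.36 and 0.28 in ICH and its sham (adjusted p = 0.000761), and miR-203-3p of keratinocytes −0.02 for MCAO, 0.14 for MCAO_Sham, 1.37 for ICH and 0.44 for ICH_Sham (adjusted p = 0.00144), highest in ICH. In the epithelial list, 8 of 10 tested members were unequal (80.0%, against 20.1% of all 199), 0 were called against Naïve in either direction (8.54% of all), and the median was 0.65.

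**Figure D5:**
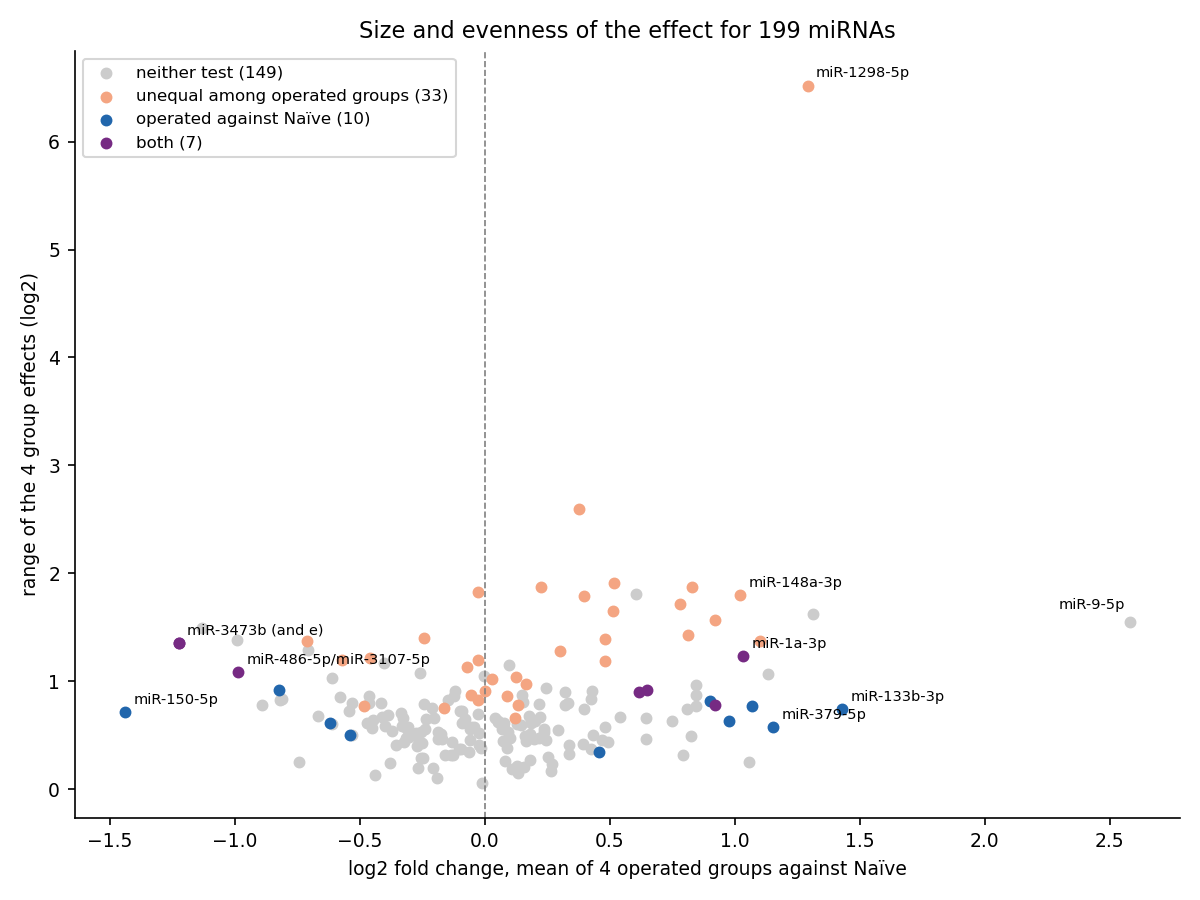
Each of the 199 miRNAs by its log2 fold change, mean of the 4 operated groups against Naïve (x axis), and by the range of the 4 group effects (y axis, log2). Of these, 10 passed only the contrast with Naïve, 33 only the equality test, 7 both and 149 neither.

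The remaining lists had no called member. The let-7 family had 7 tested members, of which 0 were called (median −0.01), the liver and gut list 4 and 0 (−0.35), the neuroendocrine list 3 and 0 (0.05), and the serum reference list 8 and 0 (−0.16). Of the 3 neuroendocrine members, miR-148a-3p had 1.02 (adjusted p = 0.0538, edgeR). miR-375-3p had 0.05 and miR-7a-5p 0.04. The liver miRNA miR-122-5p had −0.99 ± 0.52 (adjusted p = 0.208, edgeR), a value that Naïve 2 and ICH_Sham 1 move, and without Naïve 2 it was 0.09. No member of the hypoxia and stress list, which holds miR-210-3p, the HIF-1 target, passed the filter on counts, and miR-210-3p stood at 62.5 and 68.3 CPM in the summed operated and Naïve libraries.

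By sequence, the 9 rising miRNAs that were matched had a median GC content of 47.6%, equal to that of all 170 matched miRNAs, and 7 of 9 (77.8%) began with U against 52.9% of all. The corresponding values for falling miRNAs are void, since only 5 of 7 were matched. Across the 170 miRNAs, GC content and log2 fold change had a Pearson correlation of −0.30 and a Spearman correlation of −0.25, given as a description because miRNAs are not independent replicates. By group, the Pearson correlation was −0.39 for MCAO, −0.33 for ICH and −0.21 for ICH_Sham, and of the opposite sign, 0.06, for MCAO_Sham.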

How the data were processed

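The deposited table holds raw whole-number counts for 1892 miRNA entries in 50 columns, per the file headers. The submitters' processing notes name Bowtie 0.12.9, and neither the genome build nor the miRNA annotation is given in the sources used. Per the labels' protocols, RNA came from 200 µL of serum and a fixed volume went into each library. Differences in RNA yield may thus enter the totals, which was not tested. Columns with 1 index tag are 2 runs of a library and were summed. Run counts differed by a chi-square of 0.792 to 1.27 per degree of freedom, and libraries of a group by at least 11.2.

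Counts of 25 libraries were fitted with edgeR 4.0.16 (R 4.3.3), with TMM scaling (factors 0.636 to 1.16), 1 mean per group and the robust quasi-likelihood test. The filter (filterByExpr, minimum count 10) kept 199 miRNAs with 99.5% of counts. Benjamini-Hochberg adjustment ran over these 199 with a threshold of 0.05. The steps were tested on simulated counts with a common spread for all miRNAs and no outlying libraries. This checks the steps and not how far these data meet the model. A standard error is the log2 fold change divided by the square root of F. CPM are scaled by TMM except for summed libraries and for brain list members below the filter, which use totals. Contrasts were the mean of the 4 operated groups minus Naïve, equality of the 4 operated groups (3 degrees of freedom), and 1 operated group against the mean of the other 3. Alternatives used DESeq2 1.42.0, limma 3.58.1 and other scalings, filters, covariates and library sets.

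The miRNAs named are those that passed with the same sign in all leave-one-out fits, up to 4 per list by smallest p, their seed relatives and other arms, and the 5 smallest p that did not pass. miR-1298-5p, miR-34c-5p, miR-206-3p, miR-499-5p, miR-223-3p and the miRNAs below the filter were named after their values were seen. Members, lists and tests were chosen with earlier results of these data known. The tests of brain miRNAs below the filter, and the libraries no deeper than the deepest Naïve library, were chosen after seeing the data. Sequences on mouse chromosome 18 are not reported here. The reads carry no molecular identifiers, and the floors cover counting error only. The standard errors and SDs hold the spread between libraries. Figures were drawn with matplotlib 3.10.9 in Python 3.11.15.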

Additional observations from a re-analysis of the deposited data

Results flagged for a closer look

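Of 95 checks of 5 libraries of a group for 1 library far from the others, 5 found one, and chance finds about 1 in 20. miR-106b-3p was far above the rest of its group in ICH 1, at a log2 CPM of 11.31 (2534 CPM, the nearest library at 1225), and far below in Naïve 1, at 10.56 (1512 CPM, the nearest at 2331). miR-92a-3p was low in MCAO_Sham 4, at 11.46 (2811 CPM, the nearest at 5093). miR-3473b and miR-3473e, which share their reads, were low in MCAO 2, at 10.54 and 10.54 (1494 and 1489 CPM, the nearest at 4302).

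Among the 17 called miRNAs, 7 differed between the 4 operated groups by edgeR's test of equality. The adjusted p was 0.00297 for miR-199a-3p|miR-199b-3p, which was highest in ICH, 0.0340 for miR-708-3p, also highest in ICH, and 0.00985 for miR-30a-5p, highest in MCAO. It was 0.00985 for miR-486-5p|miR-3107-5p, 0.0113 for miR-3473b, 0.0113 for miR-3473e and 0.0291 for miR-1a-3p. The MCAO_Sham group was nearest to Naïve for each of the 7 except miR-30a-5p, for which it was ICH_Sham.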

How the results depend on the processing

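The 17 calls became 37 with DESeq2, 40 with the red cell ratio as a covariate, 40 with the stroke groups alone, 36 without MCAO_Sham, 28 with the ICH groups alone, 27 without ICH_Sham 1 and Naïve 2 and 27 without the 3 libraries of lowest TMM factor. They became 11 without ICH_Sham, 11 with the operated libraries as 1 group, 8 with the sham groups alone, 2 with the log2 total as a covariate and 1 with the MCAO groups and Naïve, with or without the tag block. Leaving out 1 library gave 7 (without Naïve 5) to 36 (without Naïve 2), with 10 without Naïve 4 and 34 without MCAO 5. The count of 40 unequal miRNAs became 24 with library totals alone, 11 with the red cell ratio, 2 with the tag block, 8 without the MCAO group and 14 without the 3 libraries of lowest TMM factor. For this count, leaving out 1 library gave 20 (without MCAO 2) to 64 (without MCAO 5). The cause of these moves was not tested, except that several use fewer libraries. With miR-486-5p in place of miR-451a, the red cell measure differed by −0.92 (exact permutation p = 0.00742), and with miR-16-5p by −0.29 (exact permutation p = 0.430). The fit without a filter moved the median log2 fold change of all miRNAs to 0.30. With the replicate number as a block, 26 miRNAs passed. Of 46 pairs of same-numbered libraries, 14 had r above 0.1 for their deviations from the group means. Their median r was 0.028, against −0.016 for other pairs, and the range was −0.35 to 0.54. This check showed no clear pairing by number but cannot exclude it.

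Directions turned for miR-92a-3p (0.0122), miR-423-3p (0.0324), miR-30e-5p (−0.149), miR-30a-3p (−0.000475), miR-148b-3p (−0.0918), miR-92b-3p (0.833) and miR-30c-5p (−0.270) with the log2 total as a covariate. miR-30c-5p also turned with the tag block (−0.00471), without MCAO (−0.0594), without ICH_Sham (−0.00889) and in the sham groups (−0.00302). So did miR-486-3p in the MCAO groups with (0.274) and without the tag block (0.209), and miR-203-3p with the tag block (−0.00397). Without 1 library, miR-122-5p ran from −1.25 to 0.0864 (without Naïve 2) and miR-434-5p from −0.00557 (without Naïve 4) to 0.377. Over all alternatives, 707 values of called miRNAs held the call and the direction, 139 lost the call and 1 turned. The library total difference stayed between 0.965 and 1.25 on the log2 scale without 1 library.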
